A study of Mus musculus with 80 samples.

Results

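Adenine base editing at the splice donor of *Ptbp1* exon 8 was compared between 2 editors that share the Cas9 protein of *Streptococcus pyogenes* (SpCas) and differ in their deaminase. The 9 samples, of 80 in the series, were those whose descriptions name sgRNA7 together with ABE8e-SpCas (3), with ABE-SpCas (3), or with no editor (3). The editor of the second group is ABEmax. All samples are Hepa1-6 cells, a mouse hepatoma line from a C57L mouse, transfected with Lipofectamine and 400 ng of plasmid DNA and harvested after 5 d. SpCas-ABE8e and SpCas-ABEmax samples received the editor and sgRNA plasmids, and control samples received the sgRNA without an editor. The target was amplified from the genomic DNA of the whole culture, transfected and untransfected cells together, so an unedited read may come from either. The tables hold 47996 reads in all, with 2313 to 3036 per control, 5620 to 7061 per SpCas-ABEmax sample and 6247 to 7263 per SpCas-ABE8e sample.

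An adenine base editor joins an adenosine deaminase to a Cas9 nickase. The sgRNA opens the DNA at the protospacer, the deaminase converts adenine on the displaced strand to inosine, and polymerases read inosine as guanine. ABE8e carries an evolved deaminase that acts faster than that of ABEmax. PTBP1 is an RNA-binding protein that represses many alternative exons. Almost all introns begin with GT on the gene strand, and an adenine that pairs with this T can be converted to guanine, which turns GT into GC.

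In GRCm39 the gene *Ptbp1* (ENSMUSG00000006498.18, plus strand) spans chr10:79690261-79700605. Exon 8 of the transcript ENSMUST00000172282.8 runs from 79695951 to 79696028 and has 78 bases, which is 26 codons. Of 30 annotated transcripts, 7 end an exon at this donor and continue. The protospacer lies on the minus strand, chr10:79696014-79696033, and had 1 exact match in GRCm39. Its first 5 bases are intronic and the other 15 exonic. The gene strand around the donor is shown first, with the exon in capitals (chr10:79695974-79696073). The protospacer with its PAM tgg follows on the sgRNA strand (chr10:79696011-79696033), with its 5 adenines in capitals at positions 1, 2, 4, 16 and 20 from the 5′ end.
Gene strand: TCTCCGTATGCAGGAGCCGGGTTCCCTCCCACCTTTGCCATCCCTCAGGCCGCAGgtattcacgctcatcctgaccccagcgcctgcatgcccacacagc
Protospacer and PAM: AAtAcctgcggcctgAgggAtgg

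The target is the adenine at position 4 (79696030), whose partner on the gene strand is the T of the donor GT. Adenines 2 and 1 pair with intron bases 4 and 5. Adenines 16 and 20 pair with exon bases, 11 and 15 bases before the exon end counted from its last base as 1. Cytosine 5 pairs with the first intron base and cytosine 6 with the last exon base. Changes are given on the sgRNA strand, reference base first, then position, then new base: A4G stands for guanine at adenine 4. Bases outside the protospacer are numbered from -1 to -10 before it and from 21 to 30 after it, and these 40 positions are the window of the tables.

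The alleles that the results turn on are shown on the sgRNA strand, 20 bases each, with changed bases in capitals.
Reference: aatacctgcggcctgaggga
A4G: aatGcctgcggcctgaggga
A2G + A4G: aGtGcctgcggcctgaggga
A1G + A4G: GatGcctgcggcctgaggga
A1G + A2G + A4G: GGtGcctgcggcctgaggga
A2G: aGtacctgcggcctgaggga
A4G + C6T: aatGcTtgcggcctgaggga
A4G + C5T: aatGTctgcggcctgaggga
A4G + A16G: aatGcctgcggcctgGggga
T3G + A4G: aaGGcctgcggcctgaggga
C13A: aatacctgcggcAtgaggga

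Whether samples of a group differed more than by sampling was checked first. A class here is a window allele together with its deposited numbers of deleted, inserted and substituted bases, which also count changes outside the window. SpCas-ABE8e replicates 2 and 3 did not differ over 33 such classes (chi-square p = 0.431), whereas replicate 1 differed from both (p = 8.17e-09 and 2.02e-10). Reads with more substitutions recorded than the window shows were 19.6% in replicate 1, 14.3% in replicate 2 and 15.3% in replicate 3. The classes therefore do not tell whether the window alleles of replicate 1 differ. Replicates 2 and 3 did differ in reads with an insertion, 32 of 6247 against 17 of 7263 (Fisher's exact p = 0.00919), and were kept as separate samples. The count of window changes called with these samples averaged to 1 is given under the processing alternatives. The SpCas-ABEmax samples differed from each other (p from 2.46e-05 to 0.0241), and the controls did not (p from 0.13 to 0.62).

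The target adenine was converted in most reads with both editors, and in more with ABE8e. A4G was found in 87.8%, 88.8% and 89.6% of reads in the SpCas-ABE8e samples and in 78.9%, 75.5% and 75.1% in the SpCas-ABEmax samples. The controls had 0.0659%, 0.0865% and 0.106%, which is 2, 2 and 3 reads. All SpCas-ABE8e samples were above all SpCas-ABEmax samples, and all edited samples were above the controls. The means were 88.7% ± 0.902 and 76.5% ± 2.09 (SD, n = 3 each), a difference of 12.2 percentage points ± 1.32 (SE). The two-sided exact permutation test gave p = 0.1, the smallest that 3 samples against 3 allow (0.115 adjusted over 15 measures). The 6 edited samples against the 3 controls differed by 82.5 points (exact p = 0.0238, adjusted over 14 measures 0.037).

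Read on the gene strand, conversion of the target changed the donor from GT to GC. Of reads that cover both bases, GT was kept in 11.2%, 10.2% and 9.36% in the SpCas-ABE8e samples, in 19.0%, 23.3% and 23.5% in the SpCas-ABEmax samples, and in 99.5% to 99.8% in the controls. Fewer reads thus kept the donor with ABE8e in every sample, and the groups did not overlap. GC made up 88.3% ± 0.932 and 76.5% ± 2.13 of these reads (SD, n = 3 each). At least 1 of the 2 bases was deleted in 0.736% ± 0.0312 with SpCas-ABE8e and 1.16% ± 0.367 with SpCas-ABEmax. The donor AC, which results when C5T and A4G fall in the same read, had 0.355% ± 0.0587 with SpCas-ABE8e and 0.0154% ± 0.0143 with SpCas-ABEmax.

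Among the other protospacer adenines, adenine 2 was converted most. A2G reached 20.5%, 20.2% and 20.7% of reads with SpCas-ABE8e and 2.42%, 2.51% and 2.45% with SpCas-ABEmax, against 0.0329% to 0.0432% in the controls. The difference between editors was 18.01 points ± 0.146 (SE), more than that at the target itself, and the groups were far apart. Adenine 1, at the 5′ end, had A1G in 2.53%, 2.26% and 2.12% with SpCas-ABE8e and in 0.445%, 0.326% and 0.544% with SpCas-ABEmax. The controls held 1 such read. A1G therefore stayed about an order of magnitude below A2G with SpCas-ABE8e and also lay below it in every SpCas-ABEmax sample.

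The 2 exonic adenines were converted rarely. A16G was found in 0.391%, 0.496% and 0.606% of reads with SpCas-ABE8e. It was found in 0.0356%, 0.113% and 0.0716% with SpCas-ABEmax and in 0.0988%, 0.0432% and 0.106% in the controls. The SpCas-ABE8e samples were above all others, while the SpCas-ABEmax samples overlapped the controls. On the gene strand A16G changes the codon CCT to CCC, which encode the same amino acid. A20G was at 0.0275% to 0.0480% with SpCas-ABE8e and 0.0142% to 0.0178% with SpCas-ABEmax, which is 1 to 3 reads a sample. The controls had 0 to 2 reads, and 0 of 2313 allows up to 0.13%, so conversion of adenine 20 was not detectable at this depth.

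**Figure D1:**
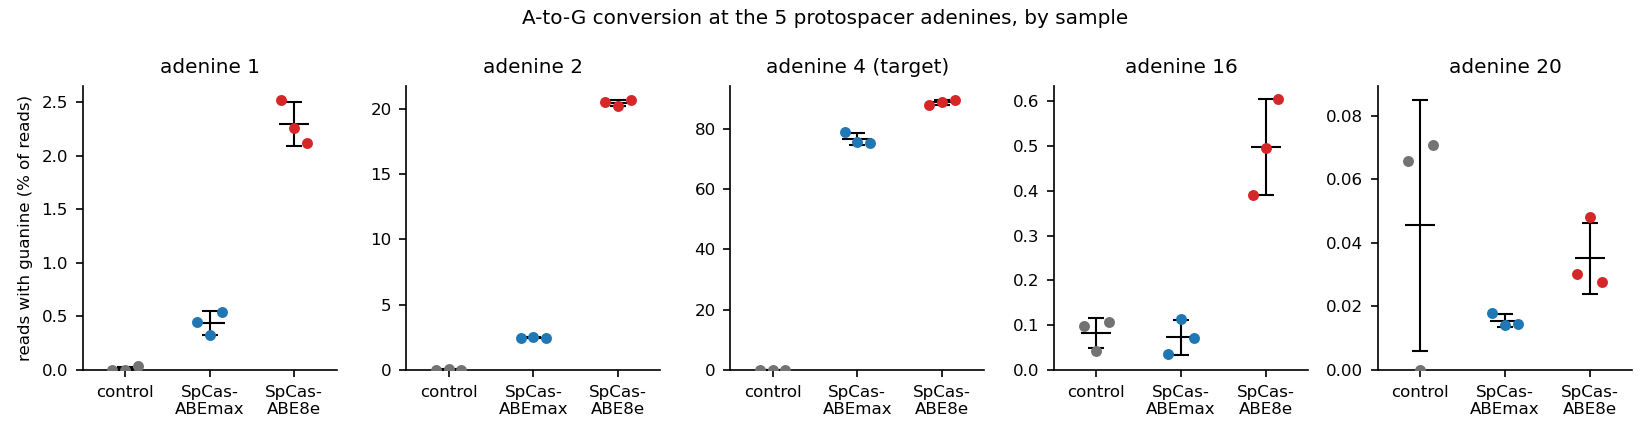
Reads with guanine at each of the 5 protospacer adenines (% of all reads, each panel with its own axis from 0), for 3 samples a group. Points are samples and bars the mean ± SD. SpCas-ABE8e lies above SpCas-ABEmax in each panel, by 12.2 percentage points at adenine 4 and 18.01 at adenine 2. At adenine 20 the points of both editors are 1 to 3 reads a sample and overlap the controls.

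The exact test gave p = 0.1, its smallest value, for each of the 5 adenines between editors, and 13 of the 15 measures had groups that did not overlap. A20G is 1 of these 13, on 1 to 3 reads a sample. A test with more power was a quasi-likelihood F test in edgeR on read counts of all 9 samples, run over every base change, deleted base and insertion in the window. With at least 10 reads, 115 of 161 such changes were tested, and 52 (45.2%) differed between the editors at an adjusted p below 0.05. Of these 52, 40 were deletion at each of the 40 positions, which largely come from the same reads, and 12 were substitutions, out of 74 tested. A4G rose by 0.21 (SE 0.02) on the log2 scale with SpCas-ABE8e over SpCas-ABEmax, A2G by 3.06 (SE 0.09), A1G by 2.39 (SE 0.24) and A16G by 2.68 (SE 0.43), with edgeR adjusted p = 1.7e-17, 5.4e-152, 3.9e-20 and 1.0e-08. A20G did not pass (adjusted p = 0.482 with edgeR). Against the controls, 58.3% of the 115 changes were called with SpCas-ABE8e and 57.4% with SpCas-ABEmax. With each editor these included all 40 deletion positions and the insertion. Of the 74 substitutions tested, 26 were called with SpCas-ABE8e and 25 with SpCas-ABEmax, in each case 6 of them lower than in the controls.

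At the level of whole alleles, the 9 samples held 760 distinct windows, of which 458 were seen in 1 read. All but 5% of reads fell in 9 to 12 alleles in a SpCas-ABE8e sample, in 7 to 9 in a SpCas-ABEmax sample and in 1 in a control. The reference allele made up 10.8%, 9.76% and 8.95% with SpCas-ABE8e, 17.8%, 21.9% and 22.2% with SpCas-ABEmax and 95.5% to 96.1% in the controls. It was lower with SpCas-ABE8e in every sample.

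The most frequent allele with both editors carried A4G as its only change in the window. It was less frequent with SpCas-ABE8e, at 61.1%, 63.0% and 62.6%, than with SpCas-ABEmax, at 73.3%, 69.7% and 68.9%. The groups did not overlap, and the difference of -8.42 points ± 1.46 (SE) runs opposite to that of A4G over all alleles. The allele with both A2G and A4G was more frequent with SpCas-ABE8e, at 18.2%, 18.2% and 18.8% of reads against 2.10%, 2.10% and 2.15% with SpCas-ABEmax. In the controls, which had A4G in 7 reads, it was not seen in 8175 reads, which allows up to 0.0367%.

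The next alleles held from 0.336% to 1.15% of reads with SpCas-ABE8e. The allele with A1G, A2G and A4G held 1.15% ± 0.192 of reads, against 0.0155% ± 0.0145 with SpCas-ABEmax. The allele with A1G and A4G held 1.02% ± 0.0148 against 0.36% ± 0.0757. That with A4G and C6T held 1.05% ± 0.0985 against 0.143% ± 0.0657, that with T3G and A4G 0.447% ± 0.168 against 0.488% ± 0.0681, and that with A4G and A16G 0.336% ± 0.0979 against 0.0344% ± 0.0144 (SD, n = 3 each). All of these were at 0 in the controls. Each of them holds A4G, which the controls had in 7 reads, so this 0 does not bear on the other changes they carry. The samples of the 2 editors overlapped for the T3G + A4G allele (log2 difference -0.13, edgeR adjusted p = 0.738; the sign turned with the median of ratios), and not for the other 4.

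Of the 54 alleles with at least 10 reads, 19 (35.2%) differed between the editors by edgeR at an adjusted p below 0.05, 12 higher and 7 lower with SpCas-ABE8e. The A2G + A4G allele was higher by 3.12 (SE 0.08) on the log2 scale, and the A1G + A2G + A4G allele by 6.03 (SE 0.38), with adjusted p = 2.0e-123 and 2.4e-40. The reference allele was lower by 1.07 (log2 change -1.07, SE 0.06) and the A4G allele by 0.18 (log2 change -0.18, SE 0.05), with adjusted p = 4.5e-55 and 0.000565. With size factors from the median of ratios in DESeq2, the signs of these 2 alleles turned, as given under the processing alternatives. Against the controls, 53.7% of the 54 alleles were called with SpCas-ABE8e and 40.7% with SpCas-ABEmax.

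**Figure D2:**
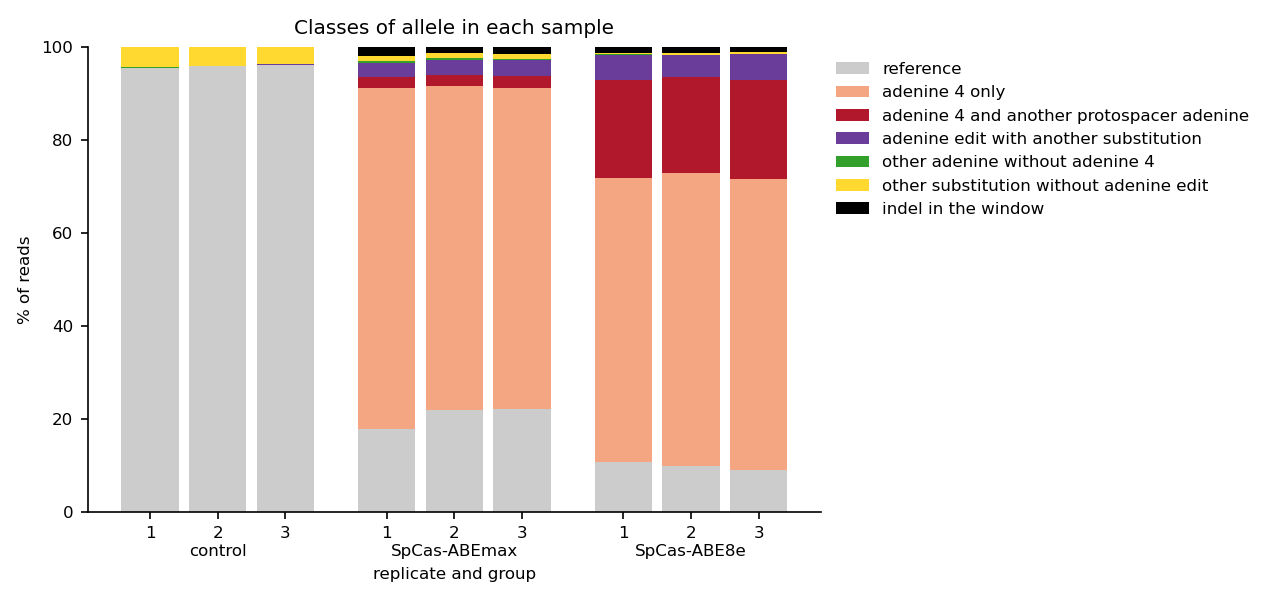
Share of reads in 7 classes of allele (% of reads, stacked to 100), for each of 9 samples. The class with adenine 4 and another protospacer adenine takes 20.7% to 21.3% of reads with SpCas-ABE8e and 2.45% to 2.66% with SpCas-ABEmax, and the reference class has means of 9.84% and 20.6%.

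Conversion of adenines 1 and 2 was read in combination with that of adenine 4. With SpCas-ABE8e, 4128 of 4129 reads with A2G also had A4G, and 461 of 463 reads with A1G did. With SpCas-ABEmax these were 440 of 484 and 77 of 86. Both editors thus placed most bystander edits on target-edited reads, which are also most of the reads, and the exceptions were more frequent with SpCas-ABEmax. The allele with A2G alone had 0.214%, 0.212% and 0.158% of reads with SpCas-ABEmax and was not seen with SpCas-ABE8e, where 0 of 20159 reads allows up to 0.0149%. It was at least 13.1-fold higher with SpCas-ABEmax (edgeR adjusted p = 9.7e-09), and 1 control had it in 0.0432% of reads.

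A2G was found in 23.4%, 22.8% and 23.1% of target-edited reads with SpCas-ABE8e and in 2.77%, 2.94% and 3.05% with SpCas-ABEmax. Among reads without A4G it was found in 0%, 0% and 0.133% with SpCas-ABE8e and in 1.10%, 1.16% and 0.633% with SpCas-ABEmax. The order of the editors was thus opposite in the 2 kinds of read. Control reads without A4G had A2G in 0.033% to 0.0433%. The reads without A4G numbered 700 to 810 in a SpCas-ABE8e sample and 1185 to 1738 in a SpCas-ABEmax sample, and unedited reads of untransfected cells cannot be told apart from them.

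**Figure D3:**
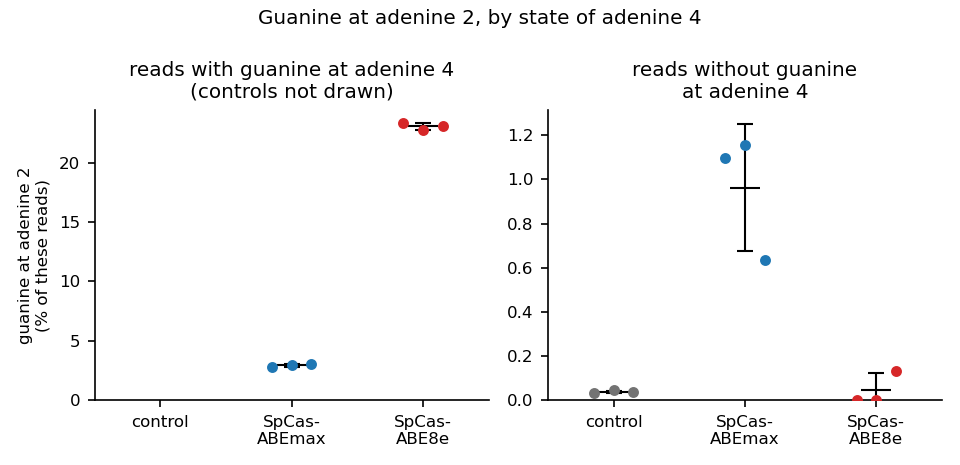
Guanine at adenine 2 as a share of reads with guanine at adenine 4 (left) and of reads without it (right), in % of these reads, each panel with its own axis. Points are samples and bars the mean ± SD. In the left panel SpCas-ABE8e lies between 22.8 and 23.4 and SpCas-ABEmax between 2.77 and 3.05, and in the right panel SpCas-ABEmax lies between 0.633 and 1.16.

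Across the 40 positions 120 substitutions are possible. A mean of at least 0.2% of reads was reached by 9 of them with SpCas-ABE8e, by 6 with SpCas-ABEmax and by 4 in the controls. With SpCas-ABE8e these were A4G, A2G, A1G, C6T, T3G, A16G, C6G, C5T and T-8C, and with SpCas-ABEmax A4G, A2G, A1G, T3G, A4C and T30G. In the controls they were C13A, C12A, T21G and T-2G. In each edited group 14 of the 120 were never seen, and 43 in the controls, whose reads were fewer.

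Substitutions at the 2 cytosines next to the target were also higher with SpCas-ABE8e. C6T, at the last exon base, was found in 1.01%, 1.23% and 1.25% of reads with SpCas-ABE8e, 0.0712%, 0.184% and 0.215% with SpCas-ABEmax and 0% to 0.0708% in the controls. C6G had 0.361%, 0.304% and 0.413% with SpCas-ABE8e and 0.16%, 0.0283% and 0.143% with SpCas-ABEmax. C5T, at the first intron base, had 0.376%, 0.288% and 0.399% with SpCas-ABE8e against 0.0178%, 0.0425% and 0.0286% with SpCas-ABEmax. The groups of the 2 editors did not overlap for any of these, and the SpCas-ABEmax samples overlapped the controls for C5T and C6G.

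The log2 differences were 2.83 (SE 0.33) for C6T, 1.73 (SE 0.42) for C6G and 3.45 (SE 0.54) for C5T, with edgeR adjusted p = 9.9e-16, 0.000582 and 4.4e-09. C5G was lower in level, at 0.127% against 0.0391%, and also called (adjusted p = 0.0189 with edgeR). In the SpCas-ABE8e samples all 235 reads with C6T, all 73 with C6G and all 72 with C5T also had A4G. Among all reads of these samples A4G was in 88.7% (mean). On the gene strand C6T changes the last exon base from G to A. This base begins a codon whose remaining bases lie in the next exon, so the codon is complete only after splicing at this donor. With that splicing the codon GGC would become AGC, which encode different amino acids. The SpCas-ABE8e reads with C6T also carry A4G at the donor, and whether they are spliced in this way was not tested.

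Before the protospacer, 3 substitutions were called between the editors: T-8C and T-2C, higher with SpCas-ABE8e, and G-3T, lower. T-8C, which on the gene strand is an A-to-G change at intron base 13 (79696041), had 0.286%, 0.176% and 0.275% of reads with SpCas-ABE8e. It was in 0.0178%, 0% and 0% with SpCas-ABEmax, a single read, and in none of the 8175 control reads. The log2 difference between the editors was 5.07 (SE 0.77, edgeR adjusted p = 2.4e-09). Of the 50 SpCas-ABE8e reads with T-8C, 48 also had A4G, which was in 88.7% of all SpCas-ABE8e reads (mean). T-2C had 0.0602%, 0.0960% and 0.110% of reads with SpCas-ABE8e and 0.0142% to 0.0286% with SpCas-ABEmax (adjusted p = 0.0206 with edgeR). Control replicate 2 had it in 0.0865% of reads and the other controls in none, so SpCas-ABE8e overlapped the controls, and T-2C was not called against them (adjusted p = 0.114 with edgeR). Over the window, reads with any T-to-C change numbered 0.587%, 0.416% and 0.468% with SpCas-ABE8e and 0.231%, 0.269% and 0.258% with SpCas-ABEmax, and these groups did not overlap.

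T3G, next to the target, rose against the controls with both editors (edgeR adjusted p = 1.0e-10 with SpCas-ABE8e and 1.3e-10 with SpCas-ABEmax). It had 0.767%, 0.80% and 0.978% of reads with SpCas-ABE8e and 0.569%, 0.85% and 1.05% with SpCas-ABEmax, against 0.0865% to 0.106% in the controls. The editors overlapped (log2 difference 0.04, SE 0.26, edgeR adjusted p = 0.955). As the only change in the window, T3G had 0.125%, 0.227% and 0.258% of all reads with SpCas-ABEmax and 0.0451%, 0.048% and 0.0551% with SpCas-ABE8e. The controls had 0.0329% to 0.0708%, but far fewer reads lack A4G in the edited samples. Among reads without A4G, T3G was in 0.567% ± 0.159 with SpCas-ABE8e and 1.00% ± 0.424 with SpCas-ABEmax, against 0.0972% ± 0.00997 in the controls (mean ± SD). A4C, a transversion at the target, was lower with SpCas-ABE8e than with SpCas-ABEmax (0.0936% against 0.227%, edgeR adjusted p = 0.0179). Samples of the 2 editors did not overlap (at most 0.120% against at least 0.127%). The controls had A4C in 0.0659%, 0.173% and 0.0708% of reads and overlapped both editors. A4C was not called against them with SpCas-ABE8e or SpCas-ABEmax (edgeR adjusted p = 0.95 and 0.0775). Only reads without A4G can hold A4C. These numbered 2264 of 20159 with SpCas-ABE8e, 4652 of 19662 with SpCas-ABEmax and 8168 of 8175 in the controls. The A4C shares above are over all reads, so they do not compare the groups among reads that could hold it, which was not tested. G-3T was the other substitution called lower with SpCas-ABE8e than with SpCas-ABEmax, at 0.0103% against 0.0675% (adjusted p = 0.0162 with edgeR).

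C13A and 5 other substitutions were higher in the controls than in either editor group. C13A had 1.91%, 1.43% and 1.27% of reads in the controls and at most 0.0752% in any edited sample. C12A had 0.329%, 0.389% and 0.425% in the controls and at most 0.0602% in the edited samples. T21G had 0.259% to 0.283% against at most 0.112%, and C9A, C13T and A26C were also called lower against controls with both editors. These 6 substitutions are the ones that were called lower against controls, and none of them passed the test between the editors. As whole alleles with no other change, C13A held 1.19% of control reads, C12A 0.224%, T-2G 0.117% and C9A 0.114% (means). The controls also had fewer reads than the edited samples, and a part of library preparation in these changes was not tested.

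Because of these changes, the summed share of cytosine changes does not separate edited from control samples. Reads with any changed protospacer cytosine were 2.45%, 2.05% and 2.60% with SpCas-ABE8e, 0.552%, 0.694% and 0.702% with SpCas-ABEmax and 2.77%, 2.16% and 2.09% in the controls. SpCas-ABE8e overlapped the controls and lay above SpCas-ABEmax. The edited samples differed from the controls by -0.83 points (exact p = 0.262).

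**Figure D4:**
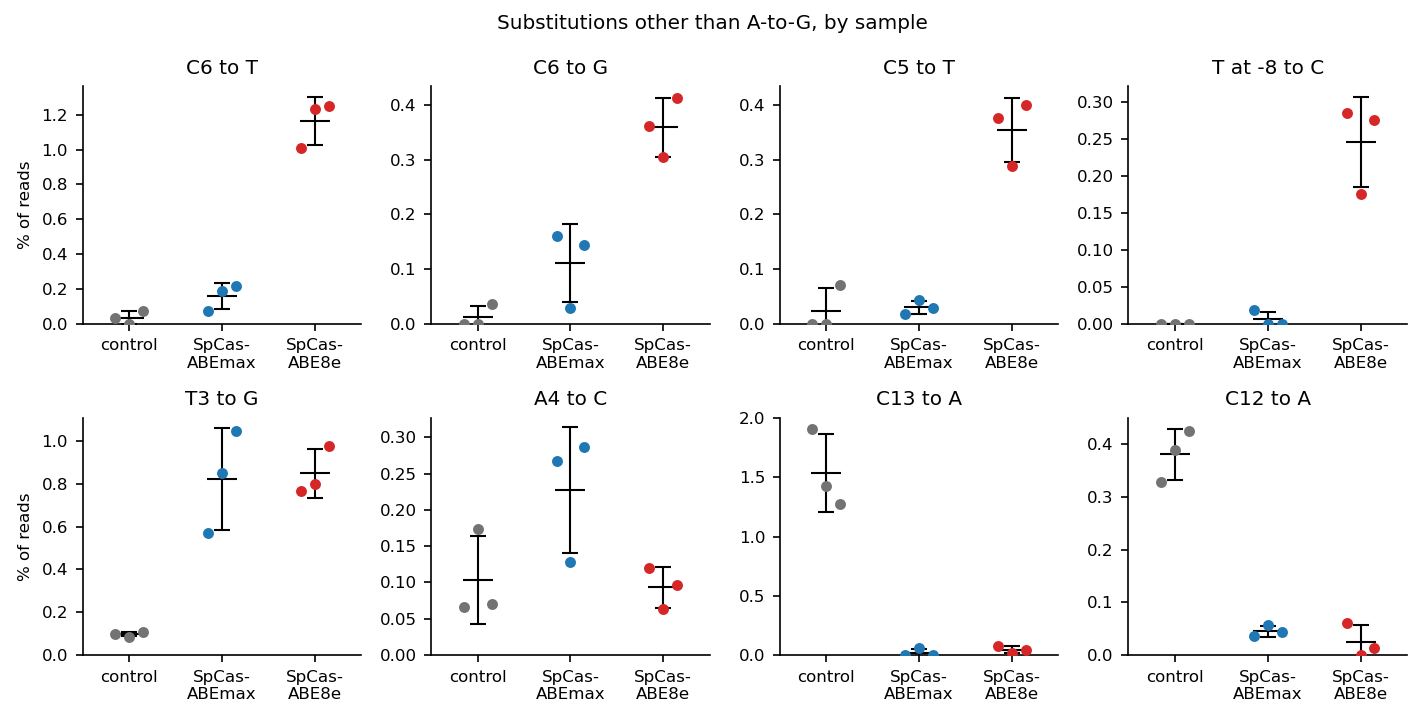
Reads with 8 substitutions other than A-to-G (% of reads, each panel with its own axis from 0), for 3 samples a group. Points are samples and bars the mean ± SD. C6T, C6G, C5T and the T-to-C change at -8 are highest with SpCas-ABE8e, T3G is high with both editors, A4C is highest on average with SpCas-ABEmax, and C13A and C12A are highest in the controls.

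Insertions and deletions were rare with both editors. Reads with an indel in the window were 1.19%, 1.36% and 1.13% with SpCas-ABE8e, 1.96%, 1.33% and 1.40% with SpCas-ABEmax and 0.0329% to 0.0432% in the controls. The 2 editors overlapped, and the difference of -0.338 points ± 0.21 (SE) did not pass the exact permutation test (p = 0.2). Both editors lay above the controls (exact p = 0.0238 for the 6 edited samples together, 0.037 adjusted).

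Counted by themselves, deletions were fewer with SpCas-ABE8e, at 0.902%, 0.848% and 0.895% of reads against 1.69%, 1.12% and 1.13% with SpCas-ABEmax. These samples did not overlap, and SpCas-ABEmax replicate 1 stood above the other 5. The controls had 1 read with a deletion each. Along the window the deleted share was highest at the target adenine with both editors, at 0.735% ± 0.0311 and 1.15% ± 0.349 (SD, n = 3 each), and lowest at position 30, at 0.283% ± 0.00679 and 0.571% ± 0.20. In edgeR each of the 40 positions was called lower with SpCas-ABE8e, with log2 differences from -1.12 to -0.63 and adjusted p from 0.00204 to 0.0289. With TMM scaling none of the 40 was called. Without SpCas-ABE8e replicate 3, 16 changes were called lower in place of 42, and without replicate 2, 20.

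**Figure D5:**
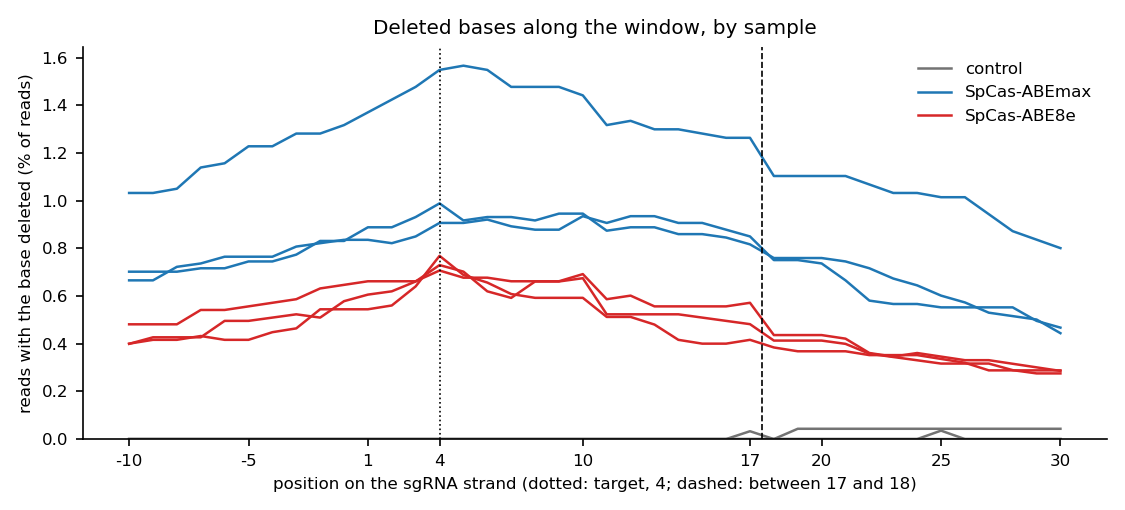
Share of reads in which each base of the 40-base window is deleted (% of reads, linear axis from 0), with 1 line for each of 9 samples, coloured by group. The dotted line marks the target at position 4 and the dashed line the predicted nick between positions 17 and 18. The 3 SpCas-ABEmax lines lie above the SpCas-ABE8e lines, and 1 of them above the rest.

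Many deletions were longer than the window. The whole window was missing in 16, 16 and 12 reads with SpCas-ABE8e and in 31, 24 and 23 reads with SpCas-ABEmax, and in none of the controls. The deposited number of deleted bases of these reads ran from 40 to 76 and from 41 to 77. Of deletions that left part of the window, 104 of 134 reads with SpCas-ABE8e and 142 of 175 with SpCas-ABEmax lacked the target adenine, so most deletion reads had lost the donor as well. An end at the predicted nick, between positions 17 and 18, was found in 16 and 20 of these reads.

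Insertions did not separate the editors. They were found in 0.286%, 0.512% and 0.234% of reads with SpCas-ABE8e and in 0.267%, 0.241% and 0.272% with SpCas-ABEmax, and in no control read (edgeR adjusted p = 0.482 between the editors). SpCas-ABE8e replicate 2 was highest. Of reads with an insertion of at least 5 bases that the row shows whole, 34 of 43 with SpCas-ABE8e and 33 of 38 with SpCas-ABEmax carried an exact copy of the bases beside the insertion, with thymine or cytosine allowed on the gene strand at the target. Most of the longer insertions were thus tandem duplications of local sequence.

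The same sgRNA was also used with SpG, a Cas9 variant with a relaxed PAM, in 3 samples each of SpG-ABE8e and SpG-ABEmax. A4G was in 67.6% ± 1.29 and 47.0% ± 4.71 of reads, and A2G in 4.53% ± 0.308 and 0.772% ± 0.207 (SD, n = 3 each). All SpG values were below those of SpCas with the same deaminase. Among target-edited reads A2G was in 6.68% ± 0.381 with SpG-ABE8e and 1.26% ± 0.269 with SpG-ABEmax. The gain from ABEmax to ABE8e in this share was 14.7 points larger with SpCas than with SpG (14.5 to 14.9 with 1 sample left out). For A4G the gain with SpCas minus that with SpG was -8.39 points (-10.8 to -6.12 with 1 sample left out). The exact permutation test over 400 arrangements gave p = 0.1 for the share (adjusted over 4 measures 0.133) and p = 0.46 for A4G. This test exchanges deaminase labels within each Cas9 variant, so it cannot decide whether the 2 gains differ.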

How the data were processed

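The authors amplified the site in a 2-step PCR, sequenced it on a MiSeq and aligned reads to the amplicon with CRISPResso2, whose version and settings are not given in the sources used here. They deposited, per sample, a table of alleles in a window of 40 bases with the count of reads, not normalized, beside 3 columns of per-read totals for deletions, insertions and substitutions. Depth was 2313 to 7263 reads a sample. Reads carry no molecular identifiers, so intervals (Wilson, 95%) and limits of 3 reads for a count of 0 cover counting error only. The labels do not say from which cultures replicates came. The authors describe their splice-site editing data in these cells as 3 independent experiments, and the methods call replicates biological.

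Shares are reads with a change over all reads of the table, with no filter. Samples were grouped by description. Shares were compared by two-sided exact permutation tests (smaller tail doubled) with Benjamini-Hochberg adjustment over 15, 14 or 4 measures. Counts of window changes and of alleles (at least 10 reads over the 9 samples) were tested with edgeR 4.0.16 (quasi-likelihood F test, offset the log of total reads, no further scaling, all 9 samples), and DESeq2 1.42.0 was an alternative. Adjusted p-values cover all features tested. The steps were tested on simulated data: of 115 simulated window changes between the editors, 4-fold changes were called in 72.8% and unchanged features in 0.17%. The window was matched to GRCm39 with GENCODE M39, since the authors' build is not given in the sources used here.

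Alleles named are the 10 most frequent with each editor, the 5 most frequent in controls and any with 0.5% of reads in a sample. Window changes named are the protospacer adenines and changes called in any comparison with means 0.2 points apart, and others, such as C5G, T-2C, A4C and G-3T, were named after their values were seen because all called substitutions between the editors are given. Members and lists were chosen with earlier results of these data known.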

Additional observations from a re-analysis of the deposited data

Results flagged for a closer look

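The deposited numbers of substituted bases cover more of the amplicon than the window, and a signal above the controls appeared there. Reads with more substitutions recorded than the window shows made up 16.4% in the SpCas-ABE8e samples and 15.8% in the SpCas-ABEmax samples (means), against 10.1% to 11.1% in the controls. The positions of these changes are not in the tables, and the difference was not tested.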

How the results depend on the processing

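For shares of reads, the edited samples minus the controls lost their call whenever 1 sample was left out, because fewer arrangements remain. Leaving out 1 sample gave 81.1 to 84.05 points for A4G, 1.13 to 1.57 for A1G, 9.58 to 13.2 for A2G, 10.4 to 14.3 for any other adenine, -82.0 to -79.3 for the reference allele, 65.0 to 67.4 for the target edit alone, 10.3 to 14.2 for 2 or more adenine edits, 1.25 to 1.41 for indels and 0.224 to 0.247 for A-to-G outside the protospacer. With the replicate number as a block, where the smallest exact p is 0.25, the same differences were 82.5, 1.36, 11.4, 12.3, -80.6, 66.4, 12.3, 1.36 and 0.237. Between samples of the same replicate number, correlations of deviations from group means over 14 measures ran from -0.551 to 0.226. The measures overlap and each group has 3 samples, so these correlations cannot decide whether replicate numbers pair the samples. The block gave 49, 64 and 62 called window changes and 16, 20 and 17 called alleles for SpCas-ABE8e against SpCas-ABEmax, SpCas-ABE8e against control and SpCas-ABEmax against control.

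With alleles of at least 0.2% of reads only, indels were 0.301 points above the controls (exact permutation p = 0.0952) and substitutions other than A-to-G or T-to-C turned from 0.706 to -0.013. A20G turned from -0.0202 to 0.0133 with alleles of at least 2 reads and to 0.0126 without background substitutions.

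Of the 52 window changes called between the editors, TMM scaling gave 9, SpCas-ABE8e replicates 2 and 3 as 1 sample (chosen after seeing the data) gave 31, and leaving out 1 sample gave 24 to 54, with 29 without SpCas-ABE8e replicate 2 and 24 without replicate 3. Called alleles between the editors numbered 12 both in DESeq2 with total reads and with at least 50 reads. Numbers tested are given for the main fit only. They differ with at least 50 reads and with no filter, so the counts for these settings are not shares of the 54 alleles. Against the controls, SpCas-ABE8e alleles called were 49 with TMM, 19 in DESeq2 with total reads, 19 with no filter, 12 with at least 50 reads and 17 to 30 with 1 sample left out (18 without control 1 and 17 without control 3). SpCas-ABEmax alleles called were 47 with TMM, 12 in DESeq2 with the median of ratios, 10 with at least 50 reads and 13 to 22 with 1 sample left out (13 without control 1, 14 without control 2 and 14 without control 3). With the median of ratios in DESeq2 the log2 differences between the editors turned to 0.0651 for the A4C allele, 1.63 for A4G, 1.74 for T3G + A4G, 0.92 for the whole-window deletion and 0.74 for the reference allele, and the cause was not tested. Of values for single alleles and changes, 505 kept direction and call, 16 lost the call, 1 gained it and 5 reversed. The number of samples, 3 a group, limits every exact test.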

Other observations

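Several transversions of low level were called against the controls with both editors by edgeR. A1C was at 0.117% with SpCas-ABE8e and 0.0984% with SpCas-ABEmax, A-6C at 0.103% and 0.102%, A-9C at 0.078% and 0.0972% and G19T at 0.171% and 0.169%. All were at 0 in the 3 controls, where 0 of 8175 reads allows up to 0.0367%. Some reads held more than 1 of these changes, such as A-9C with A-6C, so the calls are not independent. A-9G, an A-to-G change before the protospacer, was at 0.108% and 0.0938% against 0.0144% in the controls and was called with both editors. A-to-G changes outside the protospacer summed to 0.379% and 0.318% of reads against 0.112% in the controls, and the samples of the 2 editors overlapped in this sum (difference 0.0612 points, SE 0.0317, exact permutation p = 0.2, where 3 samples against 3 allow no p under 0.1).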
